A study of Homo sapiens with 5 samples.

Results

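The genes described here are those of insulin-like growth factor (IGF) reception in RPE1 cells: the receptors IGF1R, IGF2R and INSR, the receptor substrates IRS1 and IRS2, and the secreted IGF-binding proteins IGFBP3, IGFBP4, IGFBP5, IGFBP6 and IGFBP7. These 10 genes were chosen by symbol out of 26485 in a table of read counts per gene and with earlier results of these data known. All 10 passed the filter on low counts. RPE1 is an immortalized human retinal pigment epithelial line, labelled wild type. Poly-A RNA was sequenced 18 h after addition of the solvent DMSO (2 libraries), 0.2 μM doxorubicin (2 libraries) or 0.34 μM doxorubicin (1 library). Doxorubicin is a chemotherapy drug that intercalates into DNA and traps topoisomerase II on it. The concentrations are those of the sample labels, since the protocol text writes much larger numbers in the same unit. The 3 doxorubicin libraries were compared as 1 group with the 2 DMSO libraries, because the study's methods pool both doses. All libraries came from a single cell line.

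IGF1R and INSR are receptor tyrosine kinases. Bound by IGF1, IGF2 or insulin, they phosphorylate the IRS proteins, which recruit PI3K and so activate AKT and mTOR. IGF2R has no kinase and carries IGF2 to lysosomes for breakdown, and the secreted IGFBPs hold IGFs outside the cell, so that they can limit or prolong access to IGF1R. Several IGFBPs are also known among the proteins that stressed and senescent cells secrete.

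Library totals ran from 23773061 to 36725345 counts, and 14187 genes passed the filter. Of these, edgeR's quasi-likelihood test called 571 genes (4.02%) at a Benjamini-Hochberg adjusted p under 0.01, with 183 higher and 388 lower in doxorubicin. CDKN1A and MDM2, 2 p53 targets used as a check of the treatment, had log2 fold changes of 3.39 and 2.19. Of 12 pigment epithelium markers 6 passed the filter. OTX2 (601 to 887 counts) and MITF (743 to 1503 counts) were plainly present, whereas RPE65, the visual cycle isomerase of the mature tissue, had 3 to 8 counts. Of 8 markers of other cell types 2 passed, HBB was at 0 in every library, and their summed level was 0.496 to 3.02 CPM (counts per megaread of library size, TMM-normalized) in DMSO and 1.78 to 5.74 CPM in doxorubicin. Within that sum the leukocyte gene PTPRC went from 5 and 7 counts under DMSO to 25, 53 and 72 under doxorubicin, and the part of other cells in the results was not tested. The 12 pigment epithelium markers summed to 61.0 to 89.5 CPM in DMSO and 74.1 to 86.0 CPM in doxorubicin. Of 9 general epithelial and stromal markers 7 passed, and the 9 summed to 6952 to 7614 CPM in DMSO and 6232 to 7133 CPM in doxorubicin. In bulk RNA, fewer cells of a type and less of an mRNA per cell cannot be told apart.

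Most of these genes stood higher after doxorubicin, but none passed the threshold of 0.01 in the main test. In the edgeR test 0 of 10 were called, against 4.02% of all genes (1.29% higher and 2.73% lower). DESeq2, the method the study used at this threshold, called 3, IGF1R, IRS2 and IGFBP3. All were higher, against 14.1% of all genes called (6.37% higher and 7.72% lower), and limma voom called 0 of the 10. At an unadjusted edgeR p under 0.05 there were 6 of 10, against 30.8% of all genes. At an adjusted p under 0.05 there were 2, IGF1R and IRS2, both higher, against 13.6% (6.1% higher and 7.48% lower). Fitted log2 fold changes were above 0 for 9 of the 10, compared with 51.1% of all genes, and the median of the 10 was 0.63, compared with 0.013 over all genes. Those of IRS1 (0.06, SE 0.13), IGFBP4 (0.05, SE 1.07) and IGFBP5 (0.57, SE 0.65) were smaller than their SE, so their sign is uncertain. In 6 genes every doxorubicin library lay above both DMSO libraries (24.3% of all genes), in INSR alone every one lay below (23.4%), and in IRS1, IGFBP4 and IGFBP5 the groups overlapped. Across genes tested, 47.7% separated in one direction or the other.

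**Figure D1:**
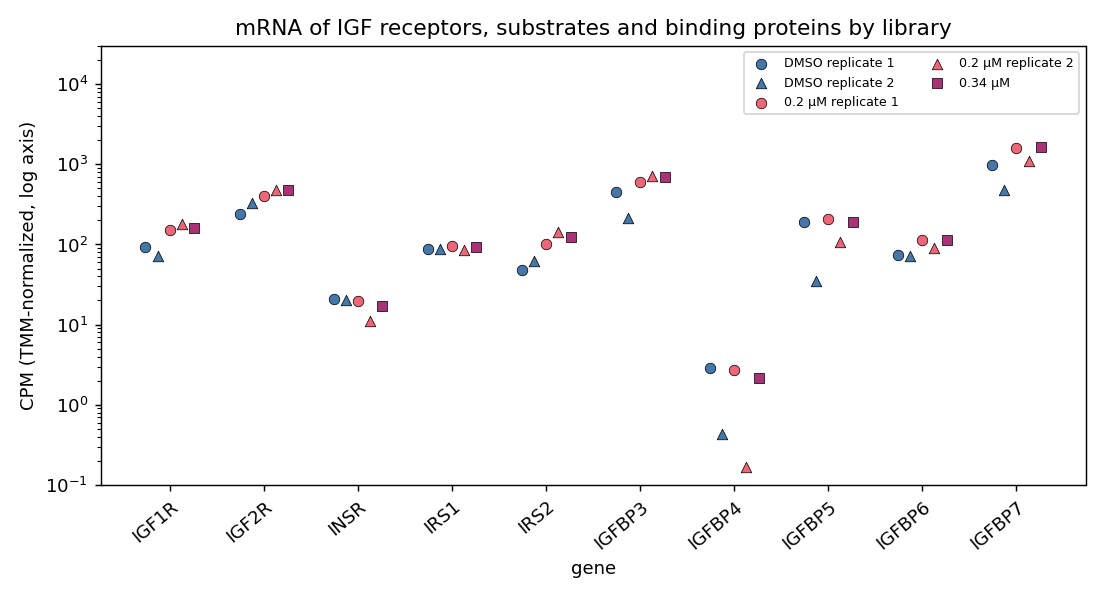
Level of each of the 10 genes in each of the 5 libraries, in TMM-normalized CPM on a log axis, with DMSO in blue, 0.2 μM in pink and 0.34 μM in purple, and replicate 1 as circles and replicate 2 as triangles. The doxorubicin symbols lie above both DMSO symbols for IGF1R, IGF2R, IRS2, IGFBP3, IGFBP6 and IGFBP7, and the replicate 2 symbols of IGFBP4 fall far below the others.

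The promoter windows of IGF1R and IGF2R, the receptors for IGF1 and IGF2 whose groups separated upward, and of IRS2 and IGFBP3, which had the largest fitted changes, are printed to show what lies directly upstream of these genes. Each holds the 250 bases before the RefSeq start in GRCh38.p14, 5′ to 3′ on the strand of the gene. Capitals mark GGGCGG (the GC box bound by SP1), CACGTG (the E-box of MYC and USF factors), CCAAT and CAAAACA (the core of the insulin response element), on either strand.
IGF1R, chr15:98648289-98648538, plus strand: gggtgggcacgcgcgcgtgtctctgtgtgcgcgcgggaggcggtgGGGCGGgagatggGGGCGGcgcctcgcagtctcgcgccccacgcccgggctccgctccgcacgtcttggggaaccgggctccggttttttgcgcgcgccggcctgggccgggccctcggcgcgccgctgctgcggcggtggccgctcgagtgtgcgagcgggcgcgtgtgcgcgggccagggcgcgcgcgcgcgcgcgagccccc
IGF2R, chr6:159968832-159969081, plus strand: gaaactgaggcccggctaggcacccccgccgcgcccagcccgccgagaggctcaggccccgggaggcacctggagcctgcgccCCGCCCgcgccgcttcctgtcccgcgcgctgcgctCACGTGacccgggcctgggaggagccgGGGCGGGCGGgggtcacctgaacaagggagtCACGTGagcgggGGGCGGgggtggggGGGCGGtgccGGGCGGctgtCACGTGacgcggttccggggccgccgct
IRS2, chr13:109786584-109786833, minus strand: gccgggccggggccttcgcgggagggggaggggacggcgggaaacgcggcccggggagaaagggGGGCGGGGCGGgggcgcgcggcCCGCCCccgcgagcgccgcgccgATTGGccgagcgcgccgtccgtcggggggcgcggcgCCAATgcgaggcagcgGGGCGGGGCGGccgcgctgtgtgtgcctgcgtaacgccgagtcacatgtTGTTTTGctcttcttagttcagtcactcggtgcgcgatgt
IGFBP3, chr7:45921273-45921522, minus strand: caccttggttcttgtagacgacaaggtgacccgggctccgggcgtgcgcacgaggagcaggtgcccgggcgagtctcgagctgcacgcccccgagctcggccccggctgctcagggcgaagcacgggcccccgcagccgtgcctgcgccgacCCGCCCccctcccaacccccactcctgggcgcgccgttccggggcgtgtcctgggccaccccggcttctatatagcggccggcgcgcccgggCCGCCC
The IGF2R window held 3 copies of CACGTG, at -132, -74 and -28 from the start, where 6.34% of 35116 promoter windows held at least 1 and 0.08% held 3 or more. The IRS2 window held CAAAACA on the opposite strand at -40 to -34, a match found in 4.3% of windows, and CCAAT once on each strand, with 32.0% of windows holding it. GGGCGG occurred 2 times in IGF1R, 6 times in IGF2R, 5 times in IRS2 and 2 times in IGFBP3, with neighbouring copies overlapping in IGF2R and IRS2. Of all windows 42.6% held it at least 1 time and 13.9% held 3 or more copies. In the windows not printed it occurred 4 times each in INSR and IRS1, 1 time each in IGFBP4 and IGFBP6, and 0 times in IGFBP5. GC content was 81.2% in the IGF1R window, 79.2% in IGF2R, 76.4% in IRS2 and 76.0% in IGFBP3, above the median of 58% over all windows. In the windows not printed it was 80.8% in IRS1, 78.4% in INSR, 71.6% in IGFBP4 and 61.2% in both IGFBP5 and IGFBP6. A high GC content was thus not particular to the printed windows. Of the 10 genes 9 had a window, IGFBP7 being the one without. The p53 consensus was searched by name, and neither a full site (0.03% of windows) nor a single decamer of one (5.57%) matched in the 9 windows. GTAAACA (the forkhead core, 2.98% of windows) and TATAAA (10.7%) were also searched on both strands, and among the 9 windows the former matched in IGFBP6 and the latter in IGFBP4. These matches describe letters only, and no binding was measured here.

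IGF1R, the main receptor for IGF1 and for IGF2 in growth signalling, spans chr15:98648539-98964530 on the plus strand. Its level was 94.1 and 71.8 CPM in the DMSO libraries, 151 and 179 CPM at 0.2 μM and 160 CPM at 0.34 μM. Every doxorubicin library was above both DMSO libraries, and the gap between the groups was wider than the spread within either. The mean went from 83.0 ± 15.7 CPM (SD, n = 2) to 163 ± 14.3 CPM (SD, n = 3). The log2 fold change was 0.98 (SE 0.18, 95% interval 0.55 to 1.40), and edgeR's adjusted p of 0.0165 was above the threshold of 0.01. Leaving out each library in turn gave log2 fold changes of 0.78 to 1.18. The long non-coding gene IRAIN lies within IGF1R in antisense, with 16 and 6 counts under DMSO against 51, 73 and 91 under doxorubicin. The library kit keeps strand, but the sources used here do not give the strand setting of the counting. At these counts IRAIN was far below the 1834 to 5809 counts of IGF1R.

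IGF2R, the clearance receptor for IGF2 and carrier of mannose 6-phosphate-tagged enzymes, spans chr6:159969082-160111504 on the plus strand. Its level was 241 and 326 CPM in DMSO, 407 and 484 CPM at 0.2 μM and 481 CPM at 0.34 μM. All doxorubicin libraries again stood above both DMSO libraries, although the lowest of them was closer to the higher DMSO library than the DMSO libraries were to each other. Its fitted log2 change was 0.69 (SE 0.19, 95% interval 0.23 to 1.15) with an edgeR adjusted p of 0.0606. The antisense gene AIRN, which overlaps IGF2R, had 0 to 19 counts.

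INSR, the insulin receptor, was the one gene of the 10 with a negative fitted change. It lies at chr19:7112265-7294414 on the minus strand. Its level was 20.9 and 20.4 CPM in DMSO, 19.6 and 11.0 CPM at 0.2 μM and 16.9 CPM at 0.34 μM. The doxorubicin libraries were all below DMSO, but 0.2 μM replicate 1 only barely so, and the pair at 0.2 μM differed by more than doxorubicin and DMSO did on average. For INSR the log2 fold change was -0.38 (SE 0.26, 95% interval -1.0 to 0.24), with an edgeR adjusted p of 0.373. Leaving out 0.2 μM replicate 2 brought it to -0.17, and the lowest value, -0.55, came without 0.2 μM replicate 1. The related orphan receptor INSRR had 0 counts in every library.

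Of the receptor substrates, IRS2 separated the groups and IRS1 did not. IRS2, at chr13:109752695-109786583 on the minus strand, had the largest fitted change of the 10. It measured 47.8 and 61.8 CPM in DMSO, 101 and 145 CPM at 0.2 μM and 123 CPM at 0.34 μM. The lowest doxorubicin library was well above the higher DMSO library, and the mean moved from 54.8 ± 9.91 CPM (SD, n = 2) to 123 ± 22.2 CPM (SD, n = 3). IRS2 had a log2 fold change of 1.17 (SE 0.21, 95% interval 0.66 to 1.67, 0.98 to 1.35 on leaving out each library in turn), with an edgeR adjusted p of 0.0165. DESeq2 gave IRS2 an adjusted p of 2.93e-05.

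IRS1, at chr2:226731312-226799820 on the minus strand, is the other widely expressed substrate. It measured 87.2 and 87.1 CPM in DMSO, 95.2 and 85.4 CPM at 0.2 μM and 91.8 CPM at 0.34 μM. The groups overlapped and all 5 libraries were within a narrow band. IRS1 had a log2 fold change of 0.06 (SE 0.13, 95% interval -0.26 to 0.38, edgeR adjusted p = 0.802). IRS4, a substrate of restricted expression, had 0 counts in every library.

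**Figure D2:**
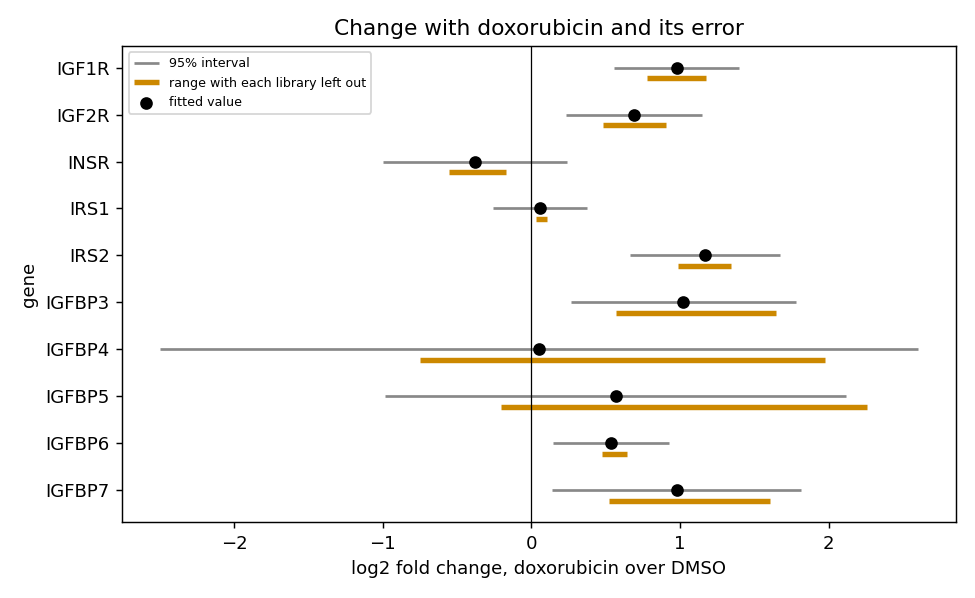
Log2 fold change of doxorubicin (n = 3) over DMSO (n = 2) for each gene, with the fitted value as a black point, its 95% interval in grey and the range of values with each library left out in orange. The intervals of IGF1R (0.55 to 1.40) and IRS2 (0.66 to 1.67) are narrow beside those of IGFBP4 (-2.50 to 2.60) and IGFBP5 (-0.98 to 2.12), which span 0.

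Among the binding proteins, IGFBP3, IGFBP6 and IGFBP7 lay higher in all doxorubicin libraries, and IGFBP4 and IGFBP5 did not separate the groups. IGFBP3, the main IGF carrier in blood and a known p53 target, lies at chr7:45912245-45921272 on the minus strand. Its level was 448 and 214 CPM in DMSO, 595 and 723 CPM at 0.2 μM and 699 CPM at 0.34 μM. The doxorubicin libraries were close together and all above DMSO, while the DMSO pair differed from each other by more (1.07 on the log2 scale) than the fitted change. That change was 1.02 (SE 0.32, 95% interval 0.27 to 1.78, edgeR adjusted p = 0.0792), and it ran from 0.57 without DMSO replicate 2 to 1.65 without DMSO replicate 1.

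IGFBP7, a low-affinity IGF binder found in the extracellular matrix of many tissues, lies at chr4:57030773-57110385 and overlaps POLR2B and the antisense gene IGFBP7-AS1. Its level was 995 and 474 CPM in DMSO, 1619 and 1093 CPM at 0.2 μM and 1626 CPM at 0.34 μM. The groups did not overlap, yet the lowest doxorubicin library exceeded the higher DMSO library by little, and replicate 2 was the lower library in both conditions. The log2 fold change was 0.98 (SE 0.35, 95% interval 0.14 to 1.82) with an edgeR adjusted p of 0.114. Leaving out DMSO replicate 2 gave 0.52, and leaving out DMSO replicate 1 gave 1.60. IGFBP7-AS1 had 11 to 41 counts, against 12098 or more for IGFBP7 in each library.

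IGFBP6, which prefers IGF2 over IGF1, lies at chr12:53097667-53102340 on the plus strand. Its level was 74.8 and 71.4 CPM in DMSO, 115 and 89.4 CPM at 0.2 μM and 113 CPM at 0.34 μM. DMSO libraries were nearly equal and all doxorubicin libraries were above them, for a log2 fold change of 0.53 (SE 0.16, 95% interval 0.14 to 0.93) and an edgeR adjusted p of 0.0775.

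IGFBP5, a binder held in the matrix of bone and other connective tissue, lies at chr2:216672105-216695549 on the minus strand. Its level was 190 and 34.7 CPM in DMSO, 205 and 107 CPM at 0.2 μM and 189 CPM at 0.34 μM. DMSO replicate 1 lay among the doxorubicin libraries, and DMSO replicate 2 stood far below every other library. IGFBP5 had a log2 fold change of 0.57 (SE 0.65, edgeR adjusted p = 0.603), which went from -0.20 without DMSO replicate 2 to 2.26 without DMSO replicate 1, so a single DMSO library decided its direction.

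IGFBP4, whose cleavage by PAPPA releases IGFs near the cell, lies at chr17:40443450-40457725 on the plus strand and was by far the scarcest of the 10. It had 75 and 11 counts in DMSO, 71 and 4 counts at 0.2 μM and 79 counts at 0.34 μM. That is 2.86, 0.431, 2.75, 0.166 and 2.18 CPM in the same order, and the exact Poisson 95% intervals, which cover counting error only, were 2.25 to 3.59 CPM for DMSO replicate 1 and 0.215 to 0.771 CPM for DMSO replicate 2. Both replicate 2 libraries were low and the 3 others were high, irrespective of treatment. Its fitted log2 change was 0.05 (SE 1.07, 95% interval -2.50 to 2.60, edgeR adjusted p = 0.981), and a change of several fold in either direction would not have been detectable. IRS1, IRS2, IGFBP3, IGFBP4 and IGFBP6 overlap no other RefSeq gene, and IGFBP5 overlaps the antisense gene IGFBP-AS1.

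Among these 10 genes the widest replicate differences were those of IGFBP4 and IGFBP5. Of the 8 binding proteins that passed the filter (IGFBP1 to IGFBP7 and IGFBPL1), 7 were higher in replicate 1 than in replicate 2 under both DMSO and 0.2 μM, compared with 27.9% of all genes, and IGFBP3 was the exception. The excess was at least 2-fold in both conditions for 4 of the 8 (3.38% of all genes), namely IGFBP1, IGFBP2, IGFBP4 and IGFBPL1. IGFBP1 and IGFBPL1 had very few counts in both replicate 2 libraries and passed the filter only through the other libraries, where they were high. Their excess was therefore partly set by the filter, and the shares over all genes are not a like comparison for them. For IGFBP4 the log2 ratio of replicate 1 to replicate 2 was 2.54 in DMSO and 3.56 at 0.2 μM. For IGFBP5 these were 2.45 and 0.94, and for IGFBP7 1.07 and 0.57. For the receptors and substrates the ratios ran from -0.43 to 0.39 in DMSO and from -0.53 (IRS2) to 0.84 (INSR) at 0.2 μM, and INSR at 0.2 μM differed by more than IGFBP3, IGFBP6 and IGFBP7. The DMSO replicates differed by more than the fitted treatment effect for 7 of the 8 binding proteins, all but IGFBP6, where 49% of all genes did so. The endothelial marker CDH5 moved with the replicate and not with the treatment, at 2 and 56 counts in DMSO, 4 and 69 at 0.2 μM and 5 at 0.34 μM. Of the 8 markers of other cell types only CDH5 and PTPRC passed the filter, so PECAM1, the other endothelial marker listed, did not. The part of CDH5 in these differences was not tested. The 0.34 μM library, which like both replicate 1 libraries carries no number in its label, was near 0.2 μM replicate 1 for IGFBP4, IGFBP5 and IGFBP7. The log2 differences were -0.33, -0.12 and 0.01.

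**Figure D3:**
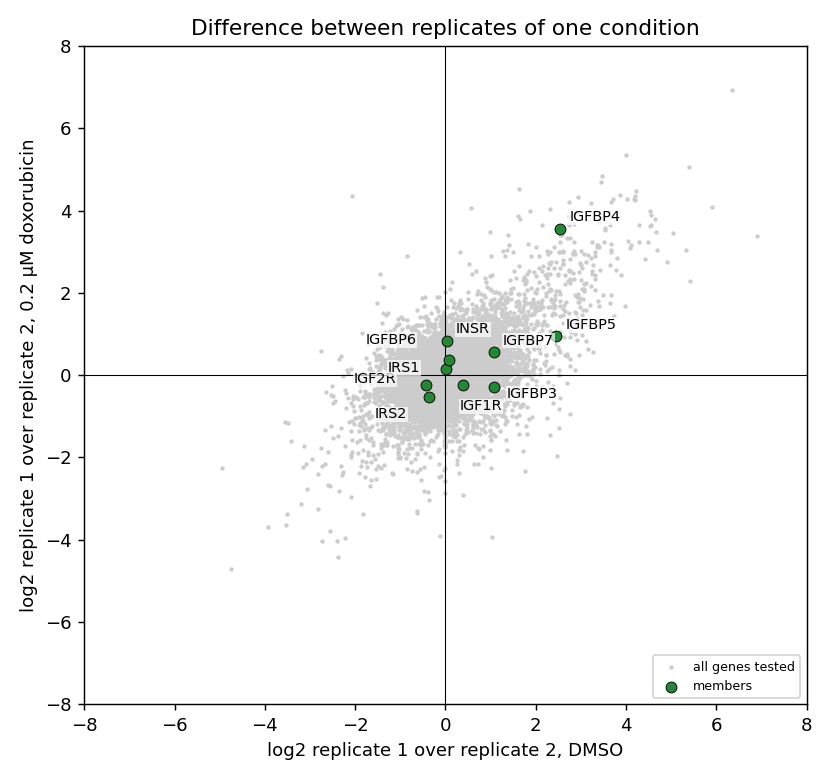
Log2 ratio of replicate 1 to replicate 2 in DMSO (horizontal) and at 0.2 μM doxorubicin (vertical), with the 14187 genes tested in grey and the 10 genes in green. IGFBP4 (2.54 and 3.56) and IGFBP5 (2.45 and 0.94) lie farthest right of the 10, and INSR (0.03 and 0.84) lies above the centre.

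The labels number only replicate 2 of DMSO and of 0.2 μM, and the unnumbered library of each was taken as replicate 1. With that numbering, the 0.2 μM library can be set against the DMSO library of the same number. For IRS2 the log2 difference was 1.07 between the libraries numbered 1 and 1.23 between those numbered 2, and for IGF1R it was 0.68 and 1.32. For IGFBP3 it was 0.41 and 1.76, for IGFBP7 0.70 and 1.21, and for IGFBP5 0.11 and 1.62. IRS2 thus had nearly the same difference in both pairs, whereas those of IGFBP3 and IGFBP5 came largely from the libraries numbered 2. IGF2R (0.76 and 0.57) and IGFBP6 (0.62 and 0.32) were positive in both pairs, and INSR (-0.09 and -0.89) and IGFBP4 (-0.06 and -1.08) negative in both.

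The higher dose could be compared with the lower only through the lone 0.34 μM library, on the assumption that it varies like the other groups. In the fit of 3 conditions edgeR called 0 genes at this contrast (0% of those tested, 22 at an unadjusted p under 0.05), as did DESeq2 and limma voom. The 22 are far fewer than would fall under 0.05 without any dose effect, so this contrast could hardly call a gene. Chi-square per degree of freedom was 75.3 between the 0.2 μM replicates and 9.01 between 0.34 μM and 0.2 μM replicate 1. The 0 calls therefore do not exclude a dose effect, and the intervals below rest on the same spread. None of the 10 genes had an unadjusted p under 0.05, and their log2 differences between doses ran from -0.04 in IGF1R to 0.57 in IGFBP4. The 95% interval was -0.72 to 0.64 for IGF1R and -0.75 to 0.76 for IRS2, both narrower on either side than the log2 fold changes of 0.98 and 1.17 against DMSO, and it was -2.80 to 3.95 for IGFBP4.

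Levels can be compared between genes once divided by transcript length, here as CPM per kilobase of the MANE Select transcript. In DMSO the order was IGFBP7 at 515 ± 258, IGFBP3 at 127 ± 63.5, IGFBP6 at 77.2 ± 2.57, IGF2R at 20.2 ± 4.27, IGFBP5 at 18.0 ± 17.6, IRS1 at 8.92 ± 0.0124, IGF1R at 6.78 ± 1.29, IRS2 at 6.71 ± 1.21, INSR at 2.18 ± 0.0373 and IGFBP4 at 0.746 ± 0.779 (SD, n = 2). Neighbours whose DMSO libraries overlapped on this scale were IGF2R and IGFBP5, IGFBP5 and IRS1, and IGF1R and IRS2, and IGFBP3 (lowest library 81.7) was barely apart from IGFBP6 (highest library 79.0), so their order does not exceed the replicate spread. In doxorubicin IGF1R was 13.3 ± 1.17 and IRS2 15.1 ± 2.73 CPM per kilobase, both above IRS1 at 9.29 ± 0.506 (SD, n = 3), a reversal of their order in DMSO. INSR was at 1.67 ± 0.468 and remained the scarcest receptor.

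The pool of the 5 binding protein mRNAs summed to 979 and 495 CPM per kilobase in DMSO, 1518 and 1155 at 0.2 μM and 1558 at 0.34 μM. All doxorubicin libraries were above DMSO, and each replicate 2 was below its replicate 1. IGFBP7 made up 69.1 ± 2.88% of the pool in DMSO (SD, n = 2) and 71.4 ± 4.44% in doxorubicin (SD, n = 3), with overlapping ranges of 67.1 to 71.2% and 66.4 to 74.7%. IGFBP3 made up 16.5 to 17.5% in DMSO and 14.99 to 24.0% in doxorubicin. IGFBP6 made up 8.07 and 15.2% in the DMSO libraries and 7.67 to 8.18% in doxorubicin, IGFBP5 1.13 and 3.12% against 1.48 to 2.17%, and IGFBP4 0.0395 and 0.132% against 0.00653 to 0.0820%. The shares of all 5 overlapped between the groups. IGFBP7 was the most abundant and IGFBP3 the next in each of the 5 libraries.

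**Figure D4:**
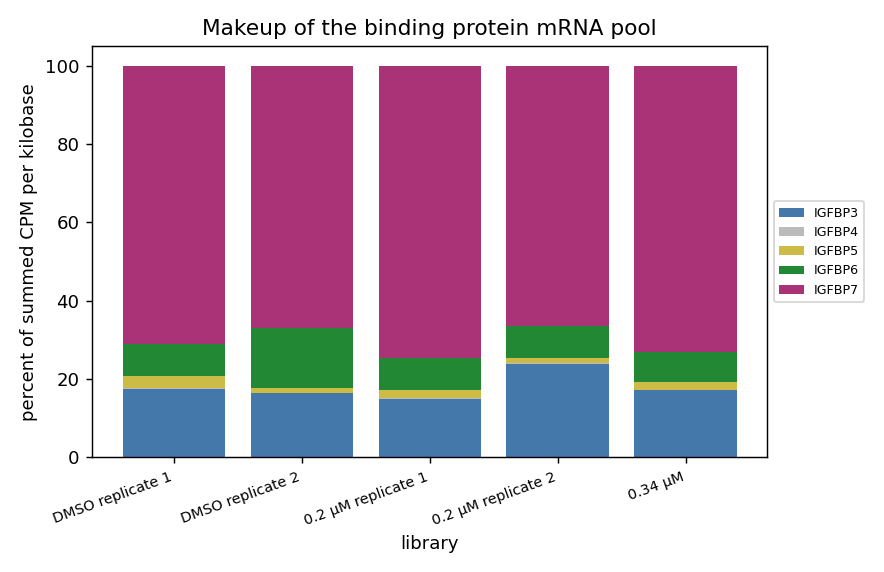
Share of each binding protein in the summed CPM per kilobase of IGFBP3 to IGFBP7, in percent, for each library, as stacked bars from 0 to 100. IGFBP7 takes 66.4 to 74.7% in all 5 libraries, IGFBP3 comes next, and IGFBP4 is too small to see.

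The ligands were close to absent from these cells. IGF1 had 0 counts in both DMSO libraries and in 0.2 μM replicate 1, 3 counts in 0.2 μM replicate 2 and 1 count at 0.34 μM, and IGF2 and INS, which encodes insulin, had 0 counts everywhere. A count of 0 allows up to 3 counts, or 0.0827 to 0.125 CPM depending on the library, and covers counting error only. The culture medium contained serum according to the labels. Of the binding proteins outside the 10, IGFBP1 counts were 17 and 1 (DMSO), then 28, 1 and 43 (doxorubicin), and IGFBP2 counts were 68 and 11, then 277, 28 and 428. Both were lower in each replicate 2 and their groups overlapped, with log2 fold changes of 1.17 (SE 1.25) and 2.38 (SE 1.08) and edgeR adjusted p of 0.575 and 0.192. Without DMSO replicate 2 these changes were 0.26 and 1.60, and without DMSO replicate 1 they were 4.18 and 4.19. IGFBPL1 counts were 10 and 0, then 10, 2 and 20 (log2 fold change 0.86, SE 1.17, edgeR adjusted p = 0.670). IGFALS, the subunit that stabilizes IGF complexes in blood, had 0 to 3 counts and was not tested. In GRCh38.p14, IGFBP1 and IGFBP3 are neighbours 18584 bases apart and IGFBP2 and IGFBP5 7668 bases apart.

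Around the 10 genes, 91 further genes of IGF and insulin signalling were listed from general knowledge, and 83 of them passed the filter. Of these 0 were called higher and 1 lower, or 1.2% against 4.02% of all genes, and their median log2 fold change was -0.0056. DESeq2 called 10 of them, 5 higher and 5 lower, where it called 14.1% of all genes. The gene called by edgeR was EIF4EBP1, which encodes the translation repressor 4E-BP1 that mTOR inactivates. It had 46.9 and 62.4 CPM in DMSO, 23.0 and 21.4 CPM at 0.2 μM and 17.0 CPM at 0.34 μM, so every doxorubicin library was well below both DMSO libraries. EIF4EBP1 fell by 1.42 on the log2 scale (SE 0.20, edgeR adjusted p = 0.00782). Without any one of the 5 libraries the call was lost, at adjusted p between 0.0151 and 0.0382 and log2 fold changes of -1.62 to -1.22. The 14 genes of the mTOR and translation list had 6 positive and 8 negative values, and RHEB, the GTPase that activates mTOR, had a log2 fold change of -0.84 (SE 0.15, edgeR adjusted p = 0.0155).

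Other lists had no call by edgeR. Of 7 IGFBP proteases and inhibitors tested 4 had positive values, among them ADAMTS1 at 1.46 (SE 0.35, edgeR adjusted p = 0.0416) and PAPPA at 0.49 (adjusted p = 0.0774), and 3 had negative values, with PAPPA2 at -1.43 (SE 0.52, adjusted p = 0.120). All 4 CCN proteins tested, which share the IGFBP fold at their amino end, had positive values with a median of 0.96, with CCN3 at 0.95 (SE 0.24, edgeR adjusted p = 0.0442). The 3 IGF2 mRNA-binding proteins all had negative values, with IGF2BP3 at -0.95 (SE 0.19, edgeR adjusted p = 0.0233). Receptor adaptors had 9 positive and 8 negative values, negative regulators of receptor and IRS signalling 8 and 11, the PI3K and AKT list 3 and 9, and the FOXO factors 3 and 1. RHEB, ADAMTS1, PAPPA, PAPPA2, CCN2, CCN3 and IGF2BP3 were singled out after their values were seen. The cell type markers named above were likewise picked from their lists with their values known.

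**Figure D5:**
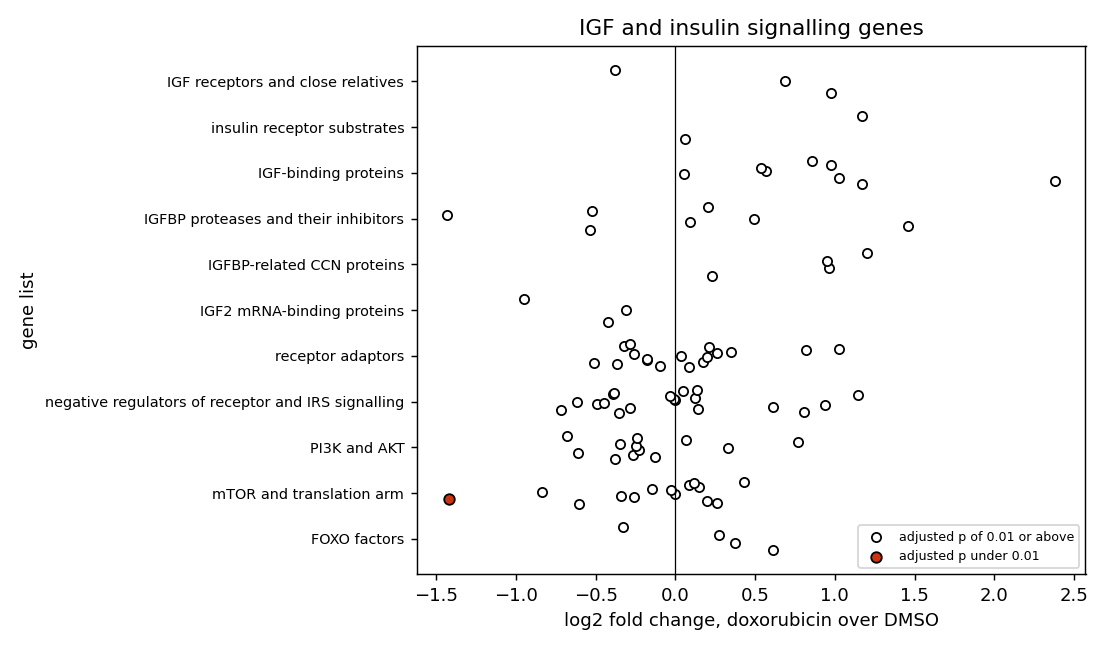
Log2 fold change of doxorubicin over DMSO for each gene tested in each list of IGF and insulin signalling genes, the 10 genes included in the first 3 lists, with each gene as a circle placed at a small vertical offset. EIF4EBP1, at -1.42 in the mTOR list, is the only filled circle, that is the only one with an adjusted p under 0.01, and all 8 binding proteins lie to the right of 0.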

How the data were processed

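Gene-level read counts of 5 libraries were used as the authors deposited them, neither normalized nor filtered. The submitters' processing notes name STAR, featureCounts and the build hg38. Their versions, the strand setting and the handling of multiply mapped reads were not given in these sources. A further deposited table holds the authors' own DESeq2 comparison (mean normalized counts, log2 fold changes and p-values of genes passing their threshold) and was not used.

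The fits used edgeR 4.0.16 under R 4.3.3, with TMM normalization, the default low-count filter (at least 10 counts, total at least 15) and the quasi-likelihood test of 3 pooled doxorubicin libraries against 2 DMSO libraries without covariates. P-values were adjusted by Benjamini-Hochberg over all 14187 genes tested, and genes were called at 0.01. Each SE was derived from the fold change and its F statistic, and the prior count for log2 CPM was 2. The test was run on simulated data first. Alternatives were DESeq2 1.42.0, limma 3.58.1 (voom), other scaling, filter, threshold and designs, thinned counts, and leaving out each library. Total counts were 23773061 to 36725345, and intervals from counts cover counting error only. Chi-square per degree of freedom between replicates was 117 (DMSO) and 75.3 (0.2 μM), and 9.01 for the closest pair examined, 0.34 μM and 0.2 μM replicate 1, all above sampling noise, so the libraries were counted separately. Libraries whose label carries no number were taken as replicate 1. Nothing in the labels ties the replicates to separate cultures, so p-values measure the spread between these libraries, although the study calls them biological replicates.

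The genes and lists were chosen with earlier results of these data known. All 10 genes were named, as were the ligands, the other binding proteins and any list gene called by edgeR. Transcript lengths of all 10 genes came from GENCODE v44 (MANE Select), and positions and 9 promoter windows from RefSeq, GRCh38.p14.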

Additional observations from a re-analysis of the deposited data

How the results depend on the processing

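Of 140 recomputed fold changes of the 10 genes (10 genes under 14 alternatives), 117 kept their direction and side of the threshold, 15 passed it and 8 changed sign. The number of the 10 called went from 0 to 3 with DESeq2 and to 2 without the low-count filter (IGF1R and IRS2) or at a threshold of 0.05, and stayed at 0 with limma voom, other scaling, thinned counts, a fit of 3 conditions and any library left out. Over all genes the 571 calls became 2026 with DESeq2, 1020 without the filter, 1927 at 0.05, 323 in the fit of 3 conditions, and 49 (without DMSO replicate 2) to 215 (without DMSO replicate 1) on leaving out a library. Among the 83 other pathway genes the 1 call became 10 with DESeq2, 4 without the filter, 10 at 0.05, 0 in the fit of 3 conditions and 0 to 1 on leaving out a library, where the 1, without DMSO replicate 1, was CCN2 in place of EIF4EBP1. The cause of these changes was not tested.

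A replicate block was also fitted on the DMSO and 0.2 μM libraries, which leaves out 0.34 μM. Few degrees of freedom remain in that fit, so its p-values rest mostly on the spread shared across genes. In it edgeR called 4 of the 10, all higher. These were IGF1R (adjusted p = 0.00476), IRS2 (0.00109), IGFBP3 (0.00787) and IGFBP7 (0.00485), and IGFBP4 was at -0.39. Over all genes there were 1249 calls, where 14187 genes were tested in the main fit, and 6 among the other pathway genes, where 83 were tested. The filter was run anew for this fit, so exact shares are not given, and the 4 calls are not read as a result about the 10 genes. The differences between replicates correlated at 0.528 across genes between the conditions, which is a hint from the data, since 2 pairs and no label of a shared batch leave the pairing unknown. With both libraries numbered 2 left out, chosen after seeing the data, 6 of the 10, 40 pathway genes and 6222 genes were called and IGFBP4 was at -0.23, but that fit has 1 DMSO library and takes its spread from 2 doxorubicin libraries.

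The other changes of sign were in genes without a call. IGFBP4 was at -0.035 with limma voom, at -0.080 with thinned counts and between -0.75 and 1.98 on leaving out a library. Without DMSO replicate 2, IGFBP5 was at -0.20 and IGFBPL1 at -0.13, and on leaving out each library they reached 2.26 and 6.32, the latter against a lone DMSO library at 0 counts, so that it depends on the prior count. Without division by length, IGFBP7 made up 58.9% of the binding protein counts in DMSO and 60.0% in doxorubicin. With 2 and 3 libraries a group, changes within the replicate spread of the binding proteins could not be resolved, and IGFBP4 was further limited by its 4 to 79 counts.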

Other observations

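Ratios within a library, chosen after the values were seen and not tested, set the receptors and substrates against each other. The ratio of IGF1R to INSR mRNA per length was 3.49 and 2.73 in DMSO, 5.94 and 12.6 at 0.2 μM and 7.33 at 0.34 μM. The ratio of IRS2 to IRS1 was 0.656 and 0.850 in DMSO and 1.27, 2.03 and 1.61 in doxorubicin, so IRS2 was the scarcer substrate mRNA in both DMSO libraries and the more abundant in all doxorubicin libraries.

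The genes with the pattern most like IRS2 over the 5 libraries, by root mean square difference of centred log2 CPM, were LIMK2 (0.0541), FLNC (0.0542) and DGKI (0.0544). Those most like IGFBP3 were KCTD16 (0.0814), ACAP1 (0.0886) and LOC100288846 (0.0955). With 14187 genes and 5 libraries, close likeness of this kind is a description only.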
